A study of Homo sapiens with 16 samples.

Results

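MeWo was compared with A101D in replicates 1 to 4 of each line, that is in 8 of the 16 libraries that were sequenced, 4 a side. A101D and MeWo are established human melanoma cell lines, each grown from the tumour of a single donor. The labels call A101D methionine dependent and MeWo methionine independent, which means that MeWo can grow when homocysteine replaces methionine in the medium. The growth protocol lists both a medium with methionine and a methionine-free medium with homocysteine, and no label ties a library to one of them. Total RNA was sequenced, and 1 line of each kind was profiled, so a difference between the lines cannot be tied to methionine dependence itself. Whether the libraries of a line came from separate cultures is not stated, and p-values then measure only the spread between these samples.

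The 8 libraries were picked by a measured value, the level of MAT2A (chromosome 2, 85539165 to 85545280), which encodes the catalytic subunit of the enzyme that makes S-adenosylmethionine (SAM) outside the liver. In CPM (counts per 1e6 counts, on scaled library sizes), MAT2A stood at 129, 134, 136 and 133 in A101D and at 180.2, 175, 185 and 188 in MeWo in replicates 1 to 4. In replicates 5 to 8 the lines ran from 611 to 628 and from 640.3 to 698. These values chose the libraries, so MAT2A was not tested. Within a line these 4 libraries were close to each other. The median over 19374 genes of the standard deviation of log2 CPM was 0.0984 in A101D, against 0.282 over all 8 libraries of that line, and 0.0961 against 0.129 in MeWo.

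As background, a cell turns methionine into SAM, the methyl donor of most methylation reactions. Spent SAM becomes homocysteine, which is remade into methionine by methionine synthase (MTR) with folate and cobalamin, or drained into cysteine by CBS and CTH. SAM also feeds polyamine synthesis, whose by-product methylthioadenosine (MTA) is recycled to methionine by MTAP. Melanoma cells stem from melanocytes, pigment cells in which the transcription factor MITF drives the genes of melanin synthesis. Melanoma lines differ in how much of this programme they keep and in how much they express genes of a dedifferentiated, matrix-producing state.

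Library totals were 28910881 to 38961862 counts for A101D and 32077855 to 35865147 for MeWo. The mitochondrial share of the counts was 1.81% ± 0.0983 (A101D) and 1.37% ± 0.0576 (MeWo), with SD over n = 4 libraries each, without overlap (two-sided exact permutation test, p = 0.0286, the smallest that 70 splits allow). The number of genes with a count was 32134 ± 794 and 31637 ± 1917 (p = 0.686, same exact test). MeWo replicate 2 had the most, with 34471 against 30256 to 31035 in the other MeWo libraries. Of the 8 marker genes of the melanocyte lineage all 8 had counts in both lines, although TYRP1 stayed below 1 CPM in A101D. Their summed level was 2793 to 3316 CPM (A101D) and 9939.6 to 11425 CPM (MeWo). Leukocyte markers summed to 5.504 to 7.16 and 1.51 to 1.901 CPM. Of these 8 markers 3 were tested at the threshold given below, 2 were lower in MeWo by more than 2-fold and 1 did not pass. CD3E and MS4A1 had at most 1 count over the 4 libraries of either line. Endothelial markers summed to 105 to 119.7 CPM in A101D, nearly all of it KDR, a VEGF receptor (107 against 1.77 CPM in MeWo), while PECAM1 had 26 and 35 counts. Of the 4 endothelial markers tested 3 were lower in MeWo by more than 2-fold and 1 did not pass. Fibroblast markers summed to 886 to 1012 CPM in A101D, of which COL1A2 made up 927, and to 74.1 to 80.95 in MeWo, of which LUM made up 71.4. Epithelial markers summed to 147 to 153 and 21.04 to 24.7 CPM, led by KRT18, with KRT5 and KRT1 at 3 or fewer counts. The part of such markers in the results below was not tested.

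Of 19374 genes tested, 15797 (81.5%) passed an adjusted p of 0.05 in limma with voom weights, 7695 (39.7%) higher and 8102 (41.8%) lower in MeWo. A difference of more than 2-fold as well was found for 6897 genes (35.6%), 2774 (14.3%) higher and 4123 (21.3%) lower. For 14726 genes (76.0%) the highest library of a line lay below the lowest of the other. Most genes therefore differed, and the count of a gene list is to be read against these shares. The median log2 fold change over all genes tested was -0.02 (MeWo minus A101D, as everywhere in the text). The lists and the genes named were chosen with earlier results of these data known, so each list is described and not tested. In these bulk libraries, fewer cells of a type and less RNA per cell cannot be told apart.

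The promoters below are shown because the genes of pigment synthesis and those of the major histocompatibility complex (MHC) class II were the groups that set the lines apart in opposite directions. Each run holds 250 bases before and 50 after a transcription start, from RefSeq on GRCh38.p14, read 5′ to 3′ on the gene's strand. In the pigment genes the capitals mark CATGTG, or CACATG on the other strand, the core of the box that MITF is known to bind.
TYR (chr11:89177625-89177924, plus strand): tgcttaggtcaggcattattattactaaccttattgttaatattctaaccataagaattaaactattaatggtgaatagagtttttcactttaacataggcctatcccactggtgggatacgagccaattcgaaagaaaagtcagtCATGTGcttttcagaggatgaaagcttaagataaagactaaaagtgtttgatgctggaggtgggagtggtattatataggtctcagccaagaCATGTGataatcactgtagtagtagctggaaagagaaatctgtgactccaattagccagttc
TYRP1 (chr9:12693135-12693434, plus strand): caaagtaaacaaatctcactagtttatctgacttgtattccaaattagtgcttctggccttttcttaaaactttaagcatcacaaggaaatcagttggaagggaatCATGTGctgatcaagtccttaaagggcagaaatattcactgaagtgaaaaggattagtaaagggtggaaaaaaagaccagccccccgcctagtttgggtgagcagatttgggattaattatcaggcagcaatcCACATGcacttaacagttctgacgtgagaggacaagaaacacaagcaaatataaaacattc
SLC24A5 (chr15:48120740-48121039, plus strand): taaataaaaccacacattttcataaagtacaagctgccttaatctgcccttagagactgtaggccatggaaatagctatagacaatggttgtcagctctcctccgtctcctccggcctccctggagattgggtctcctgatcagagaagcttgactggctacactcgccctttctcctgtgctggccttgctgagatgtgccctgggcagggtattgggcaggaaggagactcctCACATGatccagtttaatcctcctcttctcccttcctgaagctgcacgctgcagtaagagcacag
GPNMB (chr7:23246525-23246824, plus strand): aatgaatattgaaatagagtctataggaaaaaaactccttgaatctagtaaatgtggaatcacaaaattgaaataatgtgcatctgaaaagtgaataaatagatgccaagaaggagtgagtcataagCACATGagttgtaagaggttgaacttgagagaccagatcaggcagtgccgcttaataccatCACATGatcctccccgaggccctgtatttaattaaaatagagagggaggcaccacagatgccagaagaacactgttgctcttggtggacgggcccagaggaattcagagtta
In the class II genes the capitals mark GATTGG, the core of the Y box known from these promoters, which would read CCAATC on the other strand.
HLA-DRB1 (chr6:32589799-32590098, minus strand): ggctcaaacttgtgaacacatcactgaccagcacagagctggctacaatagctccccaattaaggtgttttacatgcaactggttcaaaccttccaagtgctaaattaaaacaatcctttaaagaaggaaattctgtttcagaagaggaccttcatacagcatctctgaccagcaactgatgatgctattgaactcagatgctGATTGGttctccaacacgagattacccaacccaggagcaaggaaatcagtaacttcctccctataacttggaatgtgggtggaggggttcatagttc
HLA-DMA (chr6:32953048-32953347, minus strand): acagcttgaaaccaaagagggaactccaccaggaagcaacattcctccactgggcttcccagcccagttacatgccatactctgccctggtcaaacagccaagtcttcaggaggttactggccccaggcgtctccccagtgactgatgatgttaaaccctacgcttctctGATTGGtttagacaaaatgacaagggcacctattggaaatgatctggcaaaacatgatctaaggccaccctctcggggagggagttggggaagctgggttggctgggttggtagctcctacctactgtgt

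CATGTG, on either strand, was found in the promoters of 10 of the 17 genes of the pigment list that have an entry, and in 13.4% of all 27305 genes with promoters of this length. GATTGG was found in 8 of the 11 class II genes with an entry and in 17.9% of all genes. A match is a description of the sequence. It held for genes that differed in opposite directions: TYR, TYRP1 and SLC24A5 were higher in MeWo, and GPNMB was lower.

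Genes of melanin synthesis and of the melanosome, the organelle that stores the pigment, were mostly higher in MeWo. Of the 20 listed genes 19 were tested, 16 were higher (12 by more than 2-fold), 2 lower (1 by more than 2-fold) and 1 did not pass. The median log2 fold change of the list was 1.78. TYRP1 (chromosome 9, 12685439 to 12710290), a melanosomal protein that stabilises tyrosinase and takes part in melanin synthesis, had 0.3301, 0.6304, 0.242 and 0.319 CPM in the 4 A101D libraries and 2264, 2368, 2229.7 and 1999.8 CPM in MeWo. The A101D libraries held 52 TYRP1 counts in all, which makes a ratio of 5789.6, 95% interval 4415 to 7752 (exact interval, counting error only, as for every such ratio). TYR (chromosome 11, 89177452 to 89295759), tyrosinase itself, the rate-limiting enzyme of melanin synthesis, had 1.27, 1.47, 1.07 and 1.56 CPM in A101D and 315, 319, 300.1 and 274 CPM in MeWo. All MeWo libraries lay far above all A101D libraries for TYR, which was 223-fold higher in MeWo (log2 fold change 7.80 ± 0.15 SE, adjusted p = 8.1e-28, limma).

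The channel and carrier genes of the melanosome were higher in MeWo too. OCA2, which sets melanosomal pH, stood at 0.347 ± 0.123 CPM in A101D and 89.4 ± 6.08 CPM in MeWo (SD, n = 4 each), a ratio of 264, 95% interval 198 to 361. SLC24A5, a cation exchanger of the melanosome, had 11 counts in A101D and 14.7 CPM in MeWo, a ratio of 181, 95% interval 101.1 to 364. PMEL, which forms the fibrils of the melanosome, was expressed in both lines, at 202, 220.0, 178 and 191 CPM in A101D and 6572, 6824, 6489 and 6052 CPM in MeWo, 32.8-fold higher (adjusted p = 1.27e-27, limma). With no filter on low counts, PMEL no longer passed (adjusted p = 0.41, limma), although its log2 fold change was 4.95 there and 5.04 with the filter.

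DCT went the other way. DCT (chromosome 13, 94436808 to 94479682), the tautomerase that acts after tyrosinase, had 1644, 1813, 1379.8 and 1565 CPM in A101D and 519.6, 524, 466 and 409.6 CPM in MeWo, and all A101D libraries were above all MeWo libraries (3.34-fold, log2 fold change -1.74 ± 0.11 SE, adjusted p = 3.98e-06, limma). Per kilobase of exon, DCT was thus the most abundant of TYR, TYRP1 and DCT in A101D (212 CPM per kilobase, against 0.446 and 0.102), while in MeWo it was the least abundant (63.6, against 100.1 and 592). GPNMB, a melanosomal glycoprotein, was also lower in MeWo, at 795 ± 46.3 against 1108 ± 56.3 CPM. MYO5A, the motor that carries melanosomes, stood at 454 and 439 CPM with overlapping libraries (adjusted p = 0.242, limma).

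**Figure D1:**
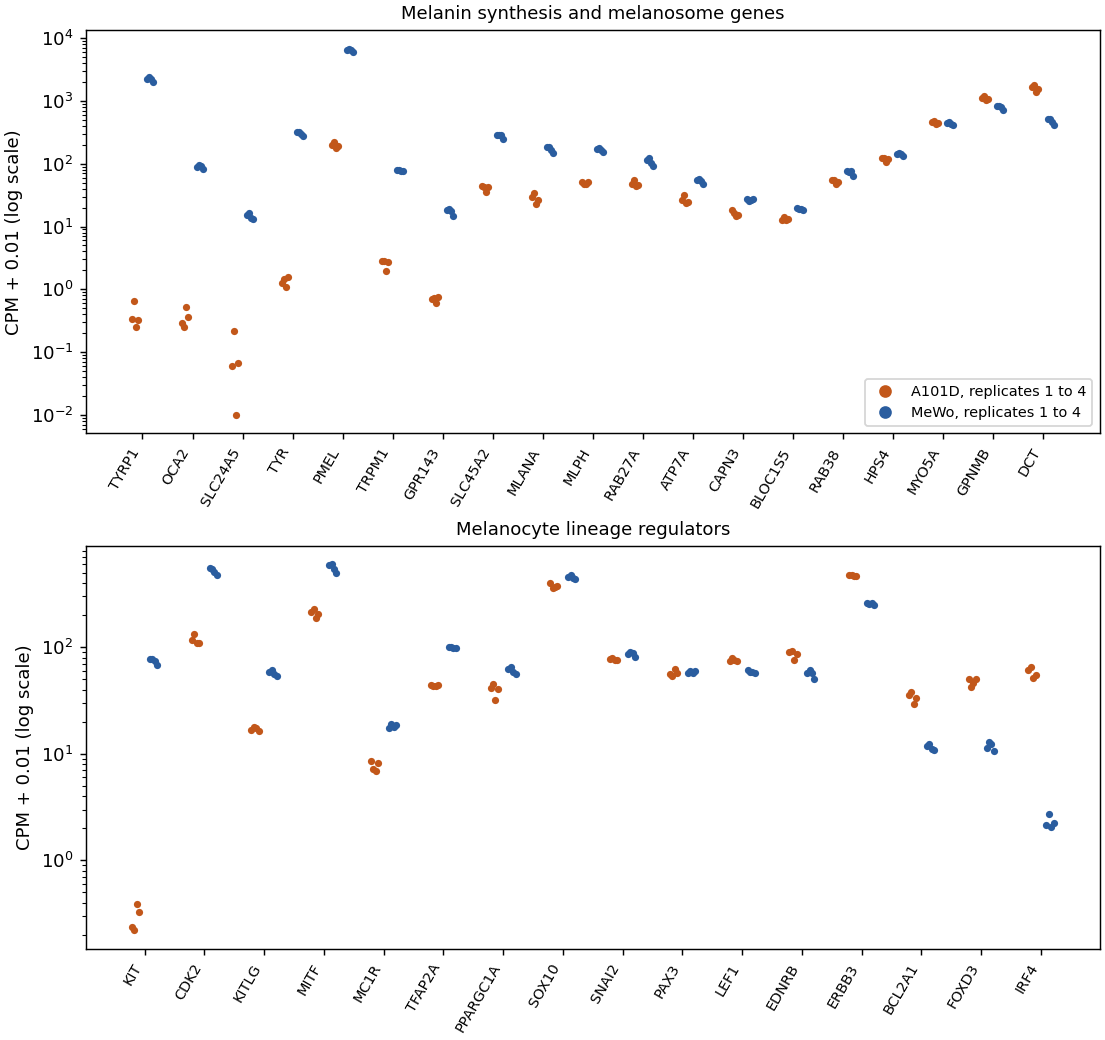
Level of each gene in each library of replicates 1 to 4, in CPM plus 0.01 on a log scale, with 1 point per library and genes ordered by their log2 fold change, for the list of melanin synthesis and melanosome genes and the list of melanocyte lineage regulators. TYRP1, OCA2, SLC24A5 and KIT sit below 1 CPM in all 4 A101D libraries, while DCT and IRF4 are higher in A101D.

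The regulators of the lineage differed less evenly. Of 16 genes tested 9 were higher (6 by more than 2-fold) and 6 lower (3 by more than 2-fold), with a median log2 fold change of 0.22. MITF, the master regulator of the melanocyte, had 214, 229, 187 and 207 CPM in A101D and 587, 600.3, 538 and 499 CPM in MeWo, 2.66-fold higher and without overlap (adjusted p = 1.24e-11, limma). SOX10, which activates MITF, differed by less, at 377 ± 15.2 and 455 ± 17.004 CPM (1.21-fold, adjusted p = 9.23e-08, limma). PAX3, another activator of MITF, did not pass (57.1 and 58.7 CPM, adjusted p = 0.383, limma). KIT, the receptor for stem cell factor, had 0.229, 0.2101, 0.381 and 0.319 CPM in A101D and 78.2, 76.9, 73.7 and 68.7 CPM in MeWo, a ratio of 266, 95% interval 194 to 377. Its ligand gene KITLG was also higher in MeWo (17.05 ± 0.667 and 57.2 ± 3.72 CPM). CDK2, which lies beside PMEL on chromosome 12, was 4.44-fold higher at 517 ± 34.7 CPM. IRF4, a factor that cooperates with MITF on TYR, was lower in MeWo, with 60.9, 64.6, 50.8 and 54.4 CPM in A101D and 2.15, 2.73, 2.03 and 2.23 CPM in MeWo (25.3-fold, adjusted p = 6.19e-21, limma). FOXD3 and BCL2A1 were 4.01-fold and 2.94-fold lower.

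MHC class II genes, which present peptides from outside the cell to CD4 T cells, were expressed in A101D and close to silent in MeWo. All 13 tested members of 14 were lower in MeWo by more than 2-fold, with a median log2 fold change of -8.62. The list summed to 1440.3 to 1508 CPM (A101D) and 12.6 to 14.3 CPM (MeWo). CIITA (chromosome 16, 10866222 to 10943021), the transactivator on which these genes depend, had 79.5, 75.01, 77.7 and 76.98 CPM in A101D and 7.98, 8.09, 7.95 and 7.88 CPM in MeWo, 9.68-fold lower (adjusted p = 3.54e-28, limma). CD74, the invariant chain, had 351, 343, 326 and 327 CPM in A101D and 2.32, 2.13, 1.81 and 1.86 CPM in MeWo. It was 165-fold lower, and its libraries did not overlap. HLA-DRB1 had 268, 268, 263 and 259.7 CPM in A101D but 23 counts in the 4 MeWo libraries together (ratio 1536, 95% interval 1023 to 2423). HLA-DRB5 had 152 CPM and 3 counts (ratio 6771, 95% interval 2317 to 32836), and its reads can be shared with HLA-DRB1, a near-identical copy. HLA-DQB1 had 63.1 CPM in A101D but 7 counts in MeWo (ratio 1206, 95% interval 585 to 3001). HLA-DQA1 and HLA-DOA had no count in MeWo and 10.7 ± 1.42 and 3.08 ± 0.662 CPM in A101D. Set against 3 counts, the floor used for a line without any, they were at least 479-fold and 138-fold lower in MeWo. HLA-DMA, whose product loads peptides, kept 1.16 ± 0.206 CPM in MeWo against 66.3 ± 2.05 CPM. Leukocyte markers summed to 5.504 to 7.16 CPM (A101D) and 1.51 to 1.901 CPM (MeWo), and their part in the class II levels was not tested.

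Genes of MHC class I and of the interferon response were divided. Of 31 tested 8 were higher (1 by more than 2-fold) and 19 lower (12 by more than 2-fold), with a median log2 fold change of -0.28. HLA-C was 7.46-fold lower in MeWo (63.98 ± 3.98 against 477 ± 17.6 CPM), and HLA-B was 4.28-fold lower (31.1 ± 1.43 against 133 ± 1.27 CPM). These genes share sequence, and alleles that differ from the reference can lose reads. B2M, the light chain of all class I molecules, did not pass, at 446, 489, 469.5 and 465 CPM in A101D and 459.8, 496, 460.1 and 418 CPM in MeWo (adjusted p = 0.511, limma). PSMB9, a subunit of the immunoproteasome, was 16.7-fold lower. BST2, an interferon-induced protein that tethers viruses to the cell, had 36.3, 35.4, 33.8 and 38.1 CPM in A101D but 9 counts in MeWo (ratio 534, 95% interval 281 to 1169). MX2, another antiviral gene, was 27.3-fold lower at 5.51 ± 0.105 CPM. IFI27, which is also interferon-induced, was the exception by size, with 0.483, 0.3002, 0.415 and 0.464 CPM in A101D and 48.004, 50.2, 46.4 and 46.8 CPM in MeWo (ratio 114, 95% interval 88.04 to 151). IFI44 and IRF7 were 1.95-fold and 1.93-fold higher.

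Cancer-testis antigens, genes of the germ line that tumours can reactivate, were lower in MeWo for most members. Of 17 tested, 15 were lower in MeWo, all by more than 2-fold, 1 was higher and 1 did not pass, with a median log2 fold change of -6.91. MAGEC2 (chromosome X, 142202345 to 142205290) had 301, 303, 311 and 306 CPM in A101D and 1.92, 2.696, 2.3999 and 3.304 CPM in MeWo (120.0-fold, adjusted p = 5.01e-30, limma). PASD1 had 85.2, 87.5, 88.5 and 83.7 CPM in A101D but none in MeWo, a level at least 3831-fold lower. PAGE5 and MAGEA10 had 4 and 2 counts in MeWo, with ratios of 2874, 95% interval 1122 to 10551 and 2778, 95% interval 769 to 22946. MAGEA6 was 76.9-fold lower, but it is a near-identical copy of MAGEA3 and its counts are uncertain. MAGEC1 was higher in MeWo at 2.43 ± 0.0267 CPM, against 17 counts in A101D. PRAME stood at 462, 468, 448 and 454 CPM in A101D and 455, 470.3, 439 and 417 CPM in MeWo, with overlapping libraries (adjusted p = 0.293, limma). It passed as lower in MeWo when only total counts were used for scaling (adjusted p = 0.048, limma).

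**Figure D2:**
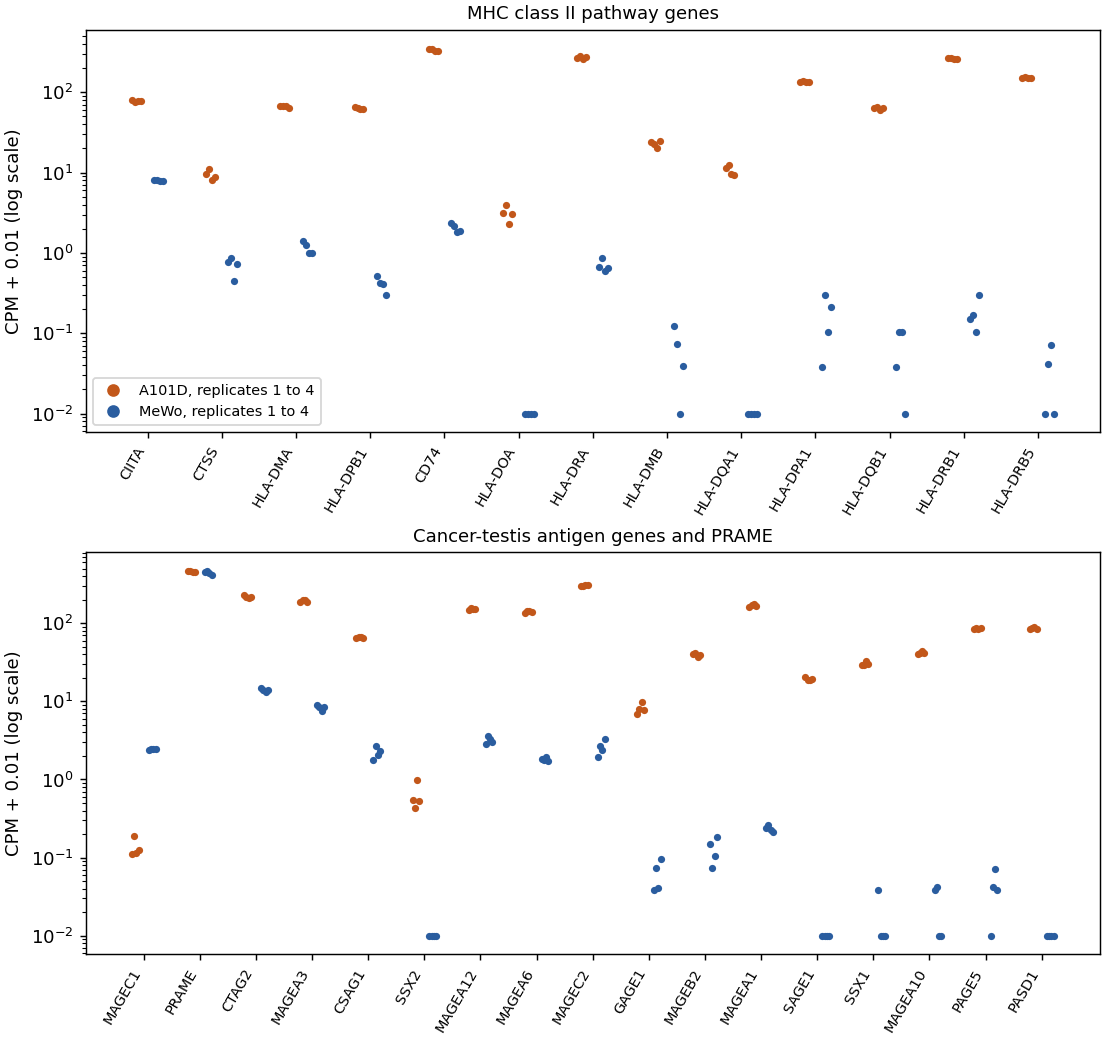
Level of each gene in each library of replicates 1 to 4, in CPM plus 0.01 on a log scale, with 1 point per library, for MHC class II pathway genes and for cancer-testis antigen genes. Points on the lowest level have no count. In the class II panel all A101D points lie above the MeWo points of their gene, and in the antigen panel PRAME is level in the lines while MAGEC1 is higher in MeWo.

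Genes of the extracellular matrix and of cell adhesion were lower in MeWo for most members. All 33 tested passed, 7 higher (4 by more than 2-fold) and 26 lower (16 by more than 2-fold), with a median log2 fold change of -0.95. COL1A2 (chromosome 7, 94394561 to 94431232), a chain of type I collagen, had 914, 875, 999.7 and 920.3 CPM in A101D and 0.622, 0.412, 0.5298 and 0.348 CPM in MeWo. Its partner chain COL1A1 was low in both lines and ran the other way, at 0.688 ± 0.255 CPM in A101D and 1.95 ± 0.469 CPM in MeWo. COL6A2, of type VI collagen, had 92.6 CPM in A101D but 16 counts in MeWo (ratio 774, 95% interval 476 to 1354), while COL6A1 was 7.38-fold lower. MMP1, interstitial collagenase, had 51.9, 59.04, 73.7 and 58.01 CPM in A101D and 0.537, 0.666, 0.436 and 1.01 CPM in MeWo. Fibronectin (FN1) was 5.62-fold lower at 702 ± 23.8 against 3953 ± 217 CPM, and tenascin C (TNC) 5.52-fold lower. TIMP3, an inhibitor of metalloproteases, was among the most abundant transcripts of A101D with 7582 ± 165 CPM, against 1059 ± 27.2 CPM in MeWo (adjusted p = 2.47e-33, and 0.71 with no filter on low counts, limma). Its relative TIMP2 (356 ± 5.35 and 1224 ± 64.7 CPM) and the protease MMP2 (471 ± 21.9 and 1256 ± 50.6 CPM) were higher in MeWo, by 3.44-fold and 2.67-fold.

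The list of the dedifferentiated melanoma state leaned the same way, with 7 of 26 tested genes higher (1 by more than 2-fold), 16 lower (13 by more than 2-fold) and a median log2 fold change of -1.0002. WNT5A, a non-canonical Wnt ligand, had 67.1, 65.3, 76.6 and 70.3 CPM in A101D but 15 counts in MeWo (ratio 618, 95% interval 375 to 1105). ZEB1, a repressor of epithelial genes, had 6.44 CPM in A101D but 3 counts in MeWo, all in replicate 2 (ratio 288, 95% interval 98.1 to 1398). LOXL2, which crosslinks collagen, had 215, 198, 224 and 214 CPM in A101D and 1.75, 1.36, 1.93 and 1.797 CPM in MeWo (124-fold, adjusted p = 2.47e-28, limma). EGFR was 7.97-fold lower and NGFR, a neural crest receptor, 1.94-fold lower, though NGFR was still at 293 ± 6.71 CPM in MeWo. AXL, a receptor kinase that is itself a usual marker of this state, was higher in MeWo, with 148, 144, 167 and 153 CPM in A101D and 352, 347, 346 and 378 CPM in MeWo (2.33-fold, adjusted p = 1.07e-21, limma). FOSL2 and FOSL1, members of the AP-1 factor family, were 1.82-fold and 1.73-fold higher.

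Secreted and surface genes known from melanoma gave 22 lower genes of 31 tested (19 by more than 2-fold) and 5 higher, none of them by more than 2-fold. IGFBP3, which binds insulin-like growth factors, had 708, 720.2, 822 and 760.1 CPM in A101D and 11.1, 11.6, 9.82 and 10.2 CPM in MeWo (70.4-fold, adjusted p = 3.11e-33, limma). S100A4 was 55.3-fold lower at 4.18 ± 0.222 CPM, and S100B, the S100 protein measured in the blood of melanoma patients, 5.22-fold lower at 127 ± 5.97 CPM. SERPINA3 had 4.41 CPM in A101D but 7 counts in MeWo. CD63, a tetraspanin of melanosomes and late endosomes, was 1.97-fold higher, and LGALS3, galectin 3, 1.72-fold higher, and SERPINF1 1.55-fold higher. CD44, S100A6 and L1CAM did not pass and differed by at most 1.05-fold. S100A6 and L1CAM passed as higher with upper-quartile scaling.

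HOX genes, which record the position of a cell along the body axis, were lower in MeWo for most members. All 9 tested HOXB genes were among the lower ones. Of 35 tested 3 were higher in MeWo (2 by more than 2-fold) and 27 lower (19 by more than 2-fold), with a median log2 fold change of -1.14. HOXB2 had 22.4, 20.6, 22.5 and 21.1 CPM in A101D but none in MeWo, a level at least 962-fold lower. HOXB4 and HOXC12 had 1 and 2 counts in MeWo, with ratios of 1251, 95% interval 224 to 49462 and 658, 95% interval 182 to 5439. HOXA10 was higher in MeWo, at 0.914, 0.8705, 0.935 and 0.724 CPM in A101D and 6.48, 6.88, 6.67 and 6.84 CPM in MeWo (7.73-fold), and HOXA9 was 2.302-fold higher. HOXD8 was 1.502-fold higher, and HOXA5 (5.85 and 5.97 CPM) and HOXC10 (21.5 and 20.5 CPM) did not pass.

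In A101D, a stretch of chromosome band 9p21 was almost without transcripts. MTAP (chromosome 9, 21802543 to 21937651), the enzyme that returns MTA to the methionine pool, had 3 counts in the 4 A101D libraries together and 75.6, 75.8, 73.7 and 73.5 CPM in MeWo, a ratio of 3386, 95% interval 1158 to 16423. Beside it CDKN2A (21967753 to 21995301), which encodes the cell cycle inhibitors p16 and ARF, had no count in A101D and 9.02, 8.91, 9.29 and 9.94 CPM in MeWo, at least 422-fold higher against the floor of 3 counts. CDKN2B (22002903 to 22009363), a related CDK inhibitor, had no count in A101D and 15.5 ± 0.997 CPM in MeWo, at least 701-fold higher. The antisense gene CDKN2B-AS1 (21994778 to 22121097) overlaps both, had 4 counts in A101D and 3.599 CPM in MeWo, and cannot be told apart from them where the counting did not use strand. On the telomeric side KLHL9, which starts at 21329671, had 49.4, 50.2, 50.6 and 50.2 CPM in A101D and 48.6, 47.5, 45.9 and 46.9 CPM in MeWo, and FOCAD 52.2 and 54.2 CPM. KLHL9 did not pass (adjusted p = 0.0584, limma), but it passed as lower in MeWo with median-of-ratios, upper-quartile or total-count scaling and with another filter. On the other side DMRTA1, which starts at 22446841, was expressed in A101D at 3.95 ± 0.574 CPM and had 21 counts in MeWo. Farther out, HACD4 and PLAA were 28.7-fold and 2.698-fold lower in MeWo. ELAVL2 and TUSC1, beyond DMRTA1, ran as MTAP did, with 8 counts in A101D against 0.797 ± 0.0954 CPM in MeWo and with 0.788 ± 0.0792 against 13.7 ± 1.18 CPM. IFNB1 and IZUMO3, on either side, had at most 2 counts in each line. In replicates 5 to 8 of A101D MTAP had 3 counts, CDKN2A and CDKN2B had 0, CDKN2B-AS1 had 45 and ELAVL2 had 85. The copy number of the region was not measured.

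**Figure D3:**
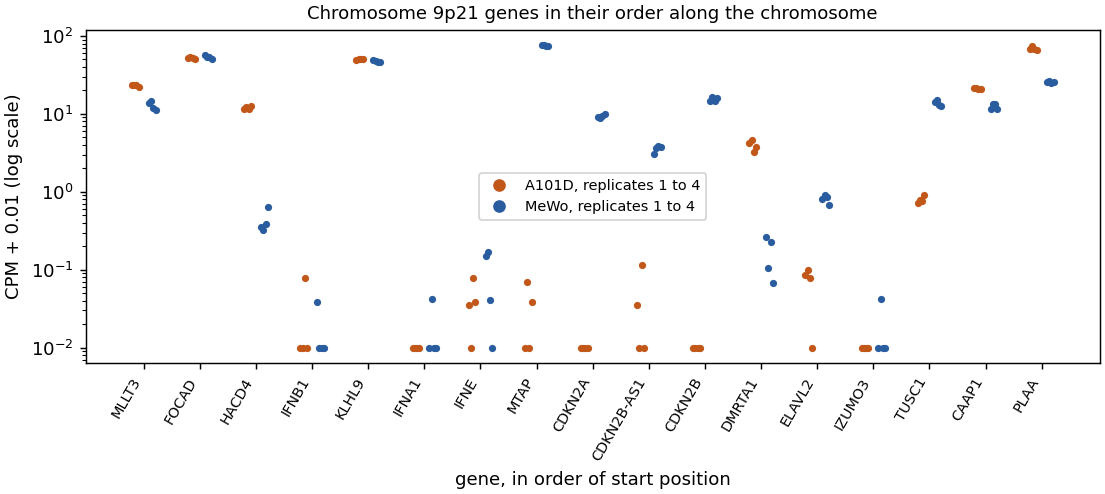
Level of 17 genes of chromosome 9p21 in each library of replicates 1 to 4, in CPM plus 0.01 on a log scale, ordered by start position along the chromosome, with 1 point per library. MTAP, CDKN2A and CDKN2B lie on or near the lowest level in A101D and above 1 CPM in MeWo, while KLHL9, to their left, is near 50 CPM in both lines.

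CDK inhibitors other than CDKN2A and CDKN2B differed in opposite directions, as CDKN1A and CDKN1C show, and some further genes are given beside them. CDKN1A, the CDK inhibitor p21, had 370.2, 367, 376 and 368 CPM in A101D and 17.9, 17.9, 17.1 and 17.3 CPM in MeWo, 21.04-fold lower (adjusted p = 9.14e-34, limma). MDM2, a ubiquitin ligase, was 5.09-fold lower at 98.7 ± 1.82 against 502 ± 23.3 CPM. EDA2R, a receptor of the TNF receptor family, had 46.3, 44.7, 44.1 and 45.6 CPM in A101D but none in MeWo, a level at least 2015-fold lower. CDKN1C, the inhibitor p57, was higher in MeWo, at 6.69 ± 0.8495 CPM against 12 counts in A101D. CDK6, the partner of D-type cyclins, was 2.98-fold lower in MeWo, and CDK4 did not pass (129 and 132 CPM). Of the 16 genes tested in the list of CDK inhibitors and cyclin D, 8 were higher and 5 lower.

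Genes of the methionine cycle differed in both directions. Apart from MAT2A, 18 members were tested, of which 6 were higher (3 by more than 2-fold) and 9 lower (3 by more than 2-fold), with a median log2 fold change of -0.07. MAT2B, the regulatory subunit for MAT2A, was 2.08-fold higher in MeWo, at 32.3, 35.03, 31.9 and 33.4 CPM in A101D and 73.8, 70.96, 67.9 and 63.2 CPM in MeWo. MAT1A, the form of the enzyme known from liver, had 12.3, 11.6, 12.2 and 11.3 CPM in A101D but 9 counts in MeWo (ratio 176, 95% interval 92.4 to 385). MTR, methionine synthase, had 161, 168, 151 and 162 CPM in A101D and 114, 112, 112 and 105 CPM in MeWo, 1.45-fold lower in the line labelled methionine independent (adjusted p = 1.91e-13, limma). MTRR, which reactivates it, did not pass (81.04 and 84.4 CPM, adjusted p = 0.192, limma). The cobalamin genes MMACHC, which frees the cofactor from its bound form, and LMBRD1, which exports it from the lysosome, were higher in MeWo. MMACHC had 2.31, 2.07, 1.83 and 2.03 CPM in A101D and 15.4, 15.8, 15.9 and 15.4 CPM in MeWo (7.502-fold, log2 fold change 2.91 ± 0.11 SE, adjusted p = 1.15e-20, limma), and LMBRD1 was 3.17-fold higher. MMAA, of the mitochondrial branch of cobalamin use, was 2.42-fold lower. AHCY, which clears S-adenosylhomocysteine, was 1.26-fold lower (265 ± 10.1 against 334 ± 7.74 CPM, adjusted p = 1.07e-09, limma, and 0.26 with all 16 libraries in the fit), and its relative AHCYL2 4.72-fold lower.

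In the branch from SAM to polyamines and back, 10 of 16 genes were higher and 4 lower, with MTAP the only one higher by more than 2-fold. AMD1, which commits SAM to polyamine synthesis, was lower in MeWo, at 382, 404, 383 and 392 CPM in A101D and 163, 167, 158 and 151 CPM in MeWo (2.45-fold, adjusted p = 1.61e-23, limma). Its range in replicates 5 to 8 was 180.4 to 237 CPM (A101D) and 228 to 243 CPM (MeWo). ODC1, which makes putrescine, was 1.67-fold higher, and GOT1, an aminotransferase, 1.49-fold higher (log2 fold change 0.58, beside -0.66 in replicates 5 to 8). MRI1 and ADI1, enzymes of the salvage route downstream of MTAP, were 1.71-fold and 1.34-fold lower.

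Folate genes gave 10 higher and 8 lower of 21 tested, with a median log2 fold change of 0.10. The largest differences were lower levels in MeWo. GLDC, of the glycine cleavage system, had 27.8, 29.2, 26.9 and 26.7 CPM in A101D and 1.44, 1.11, 1.71 and 1.39 CPM in MeWo (19.5-fold, adjusted p = 1.04e-22, limma). ALDH1L2, which oxidises formyl folate, had 58.6, 62.5, 66.1 and 59.8 CPM in A101D and 3.25, 3.24, 3.397 and 3.42 CPM in MeWo (18.4-fold). Its cytosolic counterpart ALDH1L1 was low in both lines (0.7596 and 0.191 CPM). GGH, which trims folate polyglutamates, was 2.11-fold higher in MeWo. The mitochondrial dehydrogenase MTHFD2L and AMT, another part of the glycine cleavage system, were 2.18-fold and 2.34-fold higher.

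Transcript levels of the genes of cysteine supply differed by route. SLC7A11, the cystine importer, had 58.3, 60.03, 66.9 and 59.98 CPM in A101D and 705, 724, 704 and 738 CPM in MeWo, 11.7-fold higher without overlap (log2 fold change 3.55 ± 0.04 SE, adjusted p = 3.67e-33, limma). Its heavy chain SLC3A2 was 3.25-fold higher (250.3 ± 7.25 and 814 ± 11.4 CPM). The log2 fold changes of the pair in replicates 5 to 8 were 0.90 and 0.56, and the difference between these values and those of replicates 1 to 4 was not tested. The transsulfuration enzymes, which make cysteine from homocysteine, were low in both lines. CBS had 5.71, 6.27, 7.34 and 7.24 CPM in A101D and 1.47, 1.68, 1.34 and 1.62 CPM in MeWo (4.27-fold, adjusted p = 3.55e-14, limma), with reads that a near-identical copy on chromosome 21 can share. CTH had 7.31, 6.15, 7.1997 and 6.17 CPM in A101D and 5.799, 5.52, 5.45 and 5.48 CPM in MeWo (1.202-fold, adjusted p = 0.0103, limma). Among glutathione transferases GSTP1 was 2.15-fold higher and GSTM3 and MGST1 6.84-fold and 4.45-fold lower, with all 19 tested members of the list past the threshold, 6 higher and 13 lower.

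Enzymes that spend SAM on small molecules were lower in MeWo where they differed most. NNMT, which methylates nicotinamide, had 81.3, 77.1, 76.7 and 74.99 CPM in A101D and 26.4, 27.5, 24.5 and 27.1 CPM in MeWo (2.94-fold, adjusted p = 4.64e-23, limma). INMT, which methylates indoles, had 28.5, 30.1, 34.03 and 29.2 CPM in A101D but none in MeWo, a level at least 1345-fold lower. GAMT, the last enzyme of creatine synthesis, was 6.33-fold lower. HNMT, which methylates histamine, and METTL16, an RNA methyltransferase that acts on the MAT2A transcript, were higher, by 2.23-fold and 2.14-fold, as was PCMT1, which repairs proteins by methylation (1.74-fold). The list also holds methyltransferases that act on DNA, RNA and proteins. Of the 19 genes tested in the whole list 9 were higher and 8 lower.

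The amino acid response, a programme that the transcription factor ATF4 drives when amino acids are short, was divided as well. Of 30 genes tested 12 were higher (5 by more than 2-fold) and 13 lower (7 by more than 2-fold), with a median log2 fold change of -0.07. ATF4 had 306, 302, 324 and 306 CPM in A101D and 321, 329, 315 and 313 CPM in MeWo, with overlap, and did not pass (adjusted p = 0.211, limma). SLC7A5, the partner of SLC3A2 in the import of large neutral amino acids, had 585, 541, 610.1 and 566 CPM in A101D and 1688, 1723, 1640.1 and 1701 CPM in MeWo (2.94-fold, adjusted p = 3.63e-26, limma). ASNS, asparagine synthetase, was low in both lines, at 2.08, 2.07, 2.18 and 2.38 CPM in A101D and 5.63, 6.69, 4.96 and 5.25 CPM in MeWo (2.56-fold, adjusted p = 5.42e-11, limma, and 0.20 with all 16 libraries in the fit). DDIT4, an inhibitor of mTORC1, was 2.25-fold higher. GDF15, a secreted stress hormone, was lower in MeWo, at 560.2, 495, 465 and 513 CPM in A101D and 77.4, 80.4, 72.8 and 73.2 CPM in MeWo (6.69-fold). The glycine transporter SLC6A9 was 9.13-fold lower and ATF3 4.41-fold lower. In replicates 5 to 8 the same 30 genes had a median log2 fold change of -0.71, with 4 higher and 24 lower, and 8 genes were called in both sets with opposite signs. GDF15 ran there over 2592 to 3146 CPM (A101D) and over 99.03 to 116 CPM (MeWo), and ASNS from 9.74 to 10.9 CPM and from 8.46 to 10.04 CPM.

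**Figure D4:**
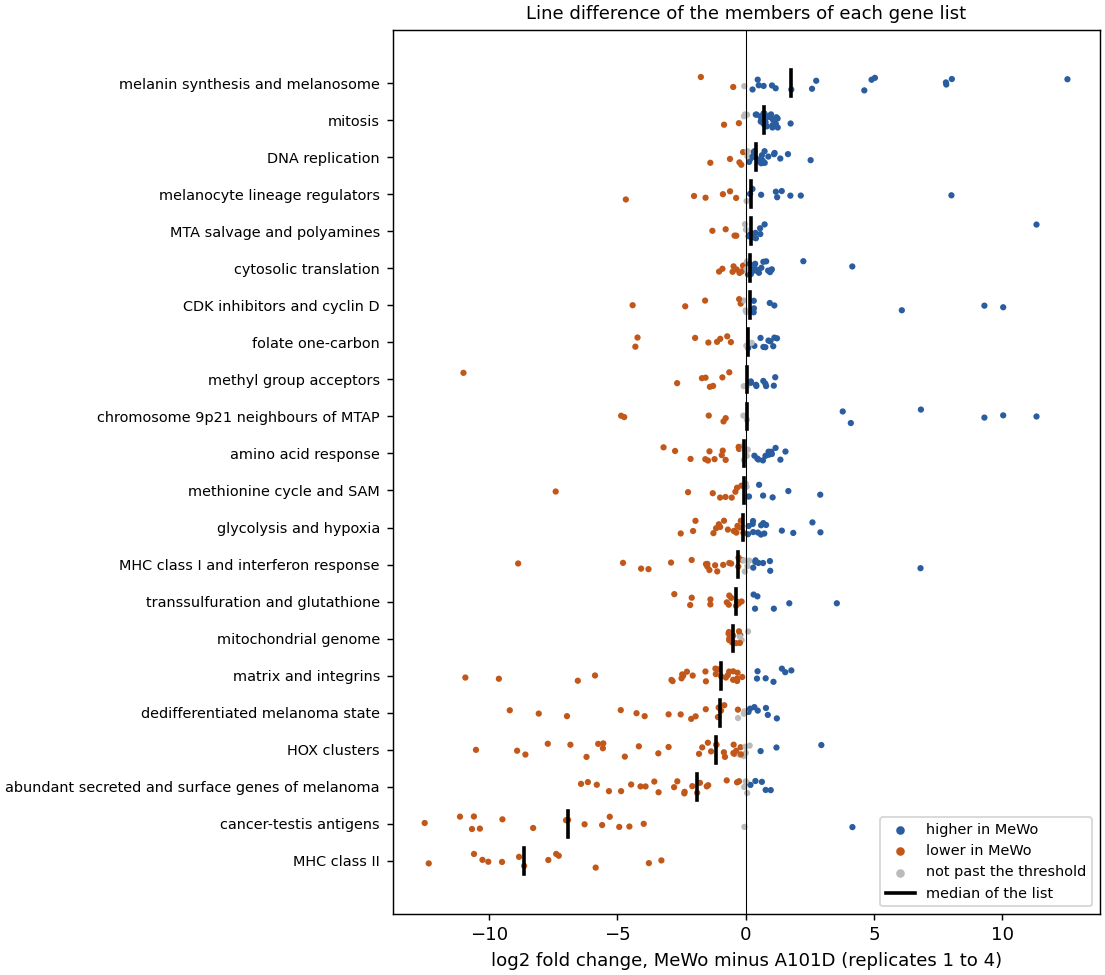
Log2 fold change, MeWo minus A101D, of each tested gene in each list over replicates 1 to 4, with 1 point per gene, coloured by whether it passed an adjusted p of 0.05 and in which direction, and with a bar at the median of the list. MHC class II (median -8.62) and cancer-testis antigens (median -6.91) lie to the low side, and the pigment list (median 1.78) to the high side.

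Most of the listed cell cycle genes were higher in MeWo. Of 30 DNA replication genes 23 were higher (5 by more than 2-fold) and 5 lower (1 by more than 2-fold), and of 30 mitosis genes 25 were higher (8 by more than 2-fold) and 2 lower. The median log2 fold changes were 0.42 and 0.73. CDK1, the kinase that starts mitosis, had 61.2, 69.6, 71.6 and 66.5 CPM in A101D and 107, 115, 109.7 and 103 CPM in MeWo (1.62-fold, adjusted p = 1.31e-14, limma). BIRC5, survivin, was 3.37-fold higher, and TK1, which salvages thymidine, 5.79-fold higher (59.9 ± 2.14 and 347 ± 11.8 CPM). CDC45, a part of the replicative helicase, was lower, at 100.3, 95.1, 106 and 102 CPM in A101D and 38.5, 39.5, 38.1 and 39.4 CPM in MeWo (2.59-fold, adjusted p = 1.03e-22, limma), as was the transcription factor MYBL2 (1.79-fold). E2F1, which turns on replication genes, was 1.18-fold lower, while its relative E2F2 was 3.14-fold higher. ORC6, of the origin recognition complex, was 2.55-fold higher, and the mitotic genes TTK and NUSAP1 2.37-fold and 2.38-fold. Cyclin E1 (CCNE1) and ANLN, which acts in cytokinesis, were 1.52-fold and 1.197-fold lower.

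In replicates 5 to 8 the same lists had median log2 fold changes of 2.27 and 2.57, and all 60 genes were higher in MeWo. CDK1 ran there over 11.2 to 13.9 CPM (A101D) and over 113 to 124 CPM (MeWo), and the ranges did not overlap. TK1 ran over 22.3 to 25.3 CPM (A101D) and over 323 to 383 CPM (MeWo). These values stand side by side with those of replicates 1 to 4, and the difference was not tested.

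Genes of cytosolic translation differed mostly by small margins. They had a median log2 fold change of 0.18, with 20 of 33 higher and 9 lower. RPS3, a protein of the small ribosomal subunit, was 4.75-fold higher at 2671 ± 137 against 561 ± 8.16 CPM, and the elongation factor EEF1A1 2.03-fold higher at 8053 ± 293 against 3970.1 ± 232 CPM (adjusted p = 3.59e-21, and 0.80 with no filter on low counts, limma). Processed copies of both genes exist, which leaves their counts uncertain. EEF1A2, a form of the factor known from neurons and muscle, stood at 0.235 ± 0.0451 CPM in A101D and 4.38 ± 0.14996 CPM in MeWo (17.8-fold). RPS27L, RPL22L1 and RPS19 were 2.04-fold, 1.87-fold and 1.42-fold lower. EEF1G had no count in any of the 8 libraries, and whether this reflects its expression or the counting of its reads was not tested. All 12 mitochondrially encoded genes that passed, of 15 tested, were lower in MeWo, none by more than 2-fold, as was the mitochondrial share of the libraries. MT-ND4L, a subunit of respiratory complex I, had 72.2, 64.6, 73.1 and 79.3 CPM in A101D and 41.7, 46.9, 46.4 and 47.9 CPM in MeWo (1.58-fold, adjusted p = 3.06e-12, limma). MT-ATP8, of the ATP synthase, and MT-ND3 were 1.56-fold and 1.55-fold lower.

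In glycolysis and the response to hypoxia all 31 tested genes passed, 15 higher and 16 lower. Of these, 21 were also called in replicates 5 to 8 with the same sign and 9 with the opposite sign. Over all 18931 genes tested in both sets, 13009 were called in both with the same sign and 1090 with opposite signs. PFKFB4, which sets the level of an activator of glycolysis, was 7.54-fold higher (52.5 ± 2.97 and 396 ± 9.87 CPM). ENO2 and PFKP were 6.08-fold and 3.62-fold higher. NDRG1, a gene known to rise with hypoxia, was 4.12-fold lower, the glucose transporter SLC2A3 3.86-fold lower and the prolyl hydroxylase EGLN3 5.75-fold lower.

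Among genes that both lines express at 1 CPM or more, the 10 with the largest log2 fold change began with CYP1B1, a cytochrome P450 that oxidises steroids and polycyclic hydrocarbons. It had 2.41, 1.92, 2.94 and 1.999 CPM in A101D and 812, 807, 824 and 844 CPM in MeWo (359-fold, adjusted p = 4.78e-32, limma). TYR came next, then FGFR1, a fibroblast growth factor receptor (1.002 ± 0.266 and 64.4 ± 1.93 CPM, 66.5-fold), and PKN3, a protein kinase (56.7-fold). LUM, the matrix proteoglycan lumican, was 55.98-fold higher and NR4A3, an orphan nuclear receptor, 46.3-fold. BCL7A, BIRC7, TPPP and SLC16A6 closed the group with 43.9-fold, 41.3-fold, 40.6-fold and 39.8-fold. BIRC7, an inhibitor of apoptosis also known as livin, is a known target of MITF, and SLC16A6, a carrier of the monocarboxylate family, reached 1443 ± 78.6 CPM.

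At the other end stood MGAM, an intestinal maltase and glucoamylase, with 1431, 1481, 1575 and 1478 CPM in A101D and 2.63, 4.03, 3.71 and 3.25 CPM in MeWo (444-fold, adjusted p = 3.75e-33, limma). SFRP1, a secreted antagonist of Wnt ligands, followed with 243, 251, 253 and 253 CPM in A101D and 1.02, 0.983, 1.37 and 1.101 CPM in MeWo (223-fold). CD74, LOXL2, MAGEC2 and MAGEA6, given above, were also among these 10. RCN3, a calcium-binding protein of the endoplasmic reticulum, was 115-fold lower and PODXL, podocalyxin, a sialomucin of podocytes and endothelium, 107-fold lower. FLT1, a VEGF receptor like KDR, had 114, 123, 133 and 128 CPM in A101D and 0.8203, 1.33, 1.28 and 1.25 CPM in MeWo. IFFO1 was 79.5-fold lower.

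Away from chromosome Y, 13 genes had no count in A101D and at least 5 CPM in MeWo, and 33 had no count in MeWo and at least 5 CPM in A101D. The most abundant of the first kind were OLFM1, a secreted glycoprotein of neurons (56.4 ± 3.65 CPM, at least 2559-fold higher in MeWo), and the long noncoding RNA LINC01502 (51.2 ± 4.62 CPM, at least 2319-fold). ROBO2, a receptor for axon guidance cues, had 41.6, 42.9, 41.1 and 40.2 CPM in MeWo. NUDT12 and IRX2, a homeobox gene, had 26.02 ± 0.998 and 21.7 ± 0.619 CPM. Of the second kind PASD1, EDA2R and INMT are given above, RNASE1, a secreted ribonuclease, had 40.02, 41.4, 35.96 and 38.2 CPM in A101D, and the unnamed gene ENSG00000273388 on chromosome 17 had 26.4 ± 1.13 CPM. OLFM1 had a trace of reads in replicates 5 to 8 of A101D, up to 0.059 CPM.

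The line difference was not even over the chromosomes. Chromosome 21 had the lowest median log2 fold change (-0.78 over 246 genes), then chromosome 7 (-0.74 over 976 genes) and chromosome 12 (-0.44 over 1025 genes). Chromosomes 18 (0.52, 296 genes), 16 (0.46, 892 genes) and 17 (0.44, 1169 genes) had the highest. On chromosome 7, 39.04% of the genes were lower by more than 2-fold and 7.38% higher, where all genes had 21.3% and 14.3%. On chromosome 17, 29.5% were higher and 11.98% lower. The medians in replicates 5 to 8 of these 6 chromosomes kept their sign, with -0.88, -0.83 and -0.50 for the first and 0.44, 0.48 and 0.47 for the last. Of the genes named on chromosome 7, MGAM, COL1A2, CDK6 and GPNMB, for example, were lower in MeWo, and HOXA9 and HOXA10 were higher. On chromosome 17 the HOXB genes were lower, while TK1, BIRC5, TIMP2 and SLC16A6 were higher. These are examples and not all the named genes of those chromosomes. The copy numbers of the chromosomes were not measured.

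When the same fit was made on replicates 5 to 8, 17429 of 20418 genes tested (85.4%) passed, 41.0% of all higher and 44.4% lower in MeWo. Past 2-fold as well were 8934 (43.8%), 18.5% higher and 25.2% lower, and the libraries did not overlap for 80.5%. Of 18931 genes tested in both sets, 15506 were called in replicates 1 to 4 and 16266 in replicates 5 to 8. The 13009 called in both with the same sign were 83.9% of the first and 80.0% of the second. Past 2-fold the counts were 6629 and 7882, of which 5543 were shared with the same sign (83.6% and 70.3%) and 14 had opposite signs. The pigment list then had a median of 2.43 and MHC class II of -8.36, beside 1.78 and -8.62 in replicates 1 to 4. TYRP1 ran from 1.09 to 1.77 CPM in A101D in replicates 5 to 8, and CIITA from 52.4 to 58.9 CPM.

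**Figure D5:**
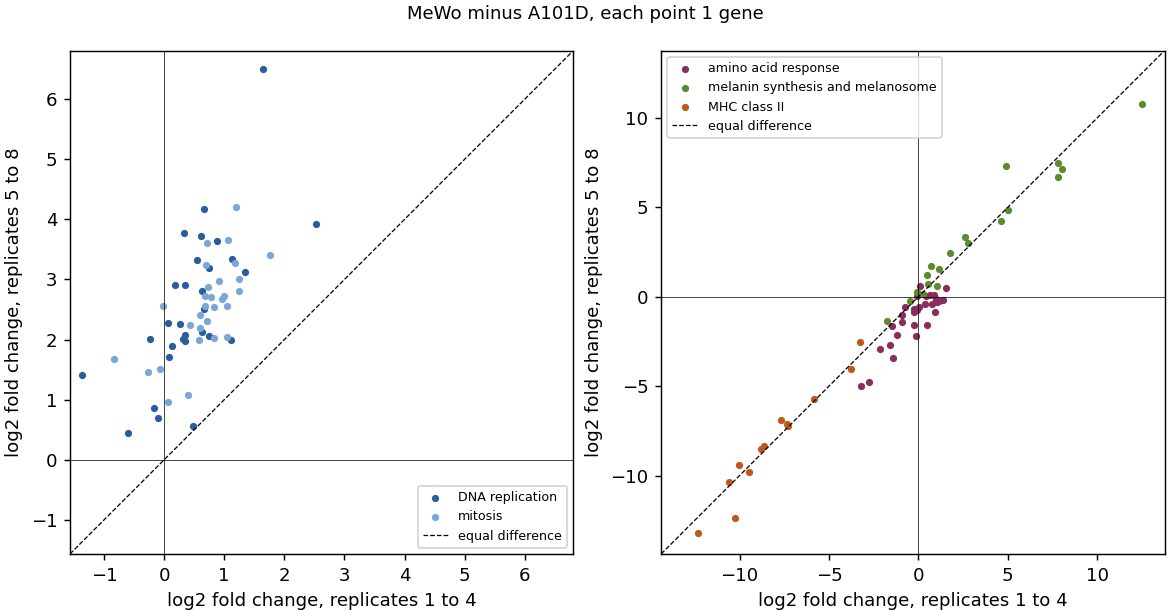
Log2 fold change of each gene between the lines in replicates 1 to 4 (horizontal) and in replicates 5 to 8 (vertical), 1 point per gene, for the members of the cell cycle lists (left) and of the amino acid response, pigment and class II lists (right), with a dashed diagonal of equal values. The class II medians are -8.62 and -8.36, the pigment medians 1.78 and 2.43, and those of the amino acid response -0.07 and -0.71. The cell cycle genes lie above the diagonal, with medians of 0.42 and 0.73 against 2.27 and 2.57.

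Away from chromosome Y, 1088 genes were called in both sets with opposite signs, 510 of them higher and 578 lower in MeWo in replicates 1 to 4. The 5 with the largest product of fold changes that were higher in MeWo in replicates 1 to 4 had few reads. TEX14 had 0.254, 0.06003, 0.208 and 0.232 CPM in A101D and 0.849, 0.412, 0.779 and 0.8696 CPM in MeWo, and in replicates 5 to 8 it ran from 2.87 to 4.35 CPM and from 0.634 to 1.04 CPM. RELN, the matrix protein reelin, had 0.559, 0.8105, 0.658 and 0.753 CPM in A101D and 1.81, 2.19, 1.62 and 1.86 CPM in MeWo, and in replicates 5 to 8 4.94 to 10.5 against 1.604 to 2.22 CPM. The others were SLC25A5P5, a pseudogene whose counts are uncertain, ENSG00000286887 and INSC, with log2 fold changes of 1.68, 3.35 and 0.72 in replicates 1 to 4 and -2.07, -0.92 and -2.72 in replicates 5 to 8. INSC did not pass in replicates 1 to 4 without A101D replicate 1, A101D replicate 2 or MeWo replicate 3 (adjusted p of 0.078, 0.10 and 0.071, limma). Lower in replicates 1 to 4 and higher in replicates 5 to 8 were CDC45, at 12.3 to 15.4 CPM (A101D) and 33.3 to 37.3 CPM (MeWo) in the second set, and the histone genes H2BC14 and H4C4. H2BC14 had 48.6, 45.8, 50.8 and 49.95 CPM in A101D and 24.7, 26.1, 24.1 and 21.2 CPM in MeWo, and in replicates 5 to 8 5.11 to 6.02 against 23.99 to 30.1 CPM. H4C4 had log2 fold changes of -1.20 and 1.62, RIBC2 -1.08 and 2.67, and FBXO43 -1.28 and 1.91. Histone genes have near-identical coding copies, so their counts are uncertain. In H2BC14, H4C4 and CDC45 the A101D level was lower in replicates 5 to 8 than in replicates 1 to 4, and this difference was not tested.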

How the data were processed

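Total RNA of both lines was sequenced with a stranded kit, per the labels' protocols. Reads were trimmed with Trimmomatic 0.39-1, aligned with STAR 2.7.1a and counted with featureCounts 2.0.0 on GRCh38, per the submitters' processing notes. For the strand setting and the annotation release, the sources used here give nothing. The authors deposited 1 table of whole-number counts per line, with 1 column per library. Every cell joins a gene identifier and its count (60676 identifiers, 60357 with a symbol and 58503 with a position in GENCODE release 29). Since the identifier and the count share a cell, the deposited columns were not taken as plain counts, and edgeR and DESeq2 were not run. This departs from the planned test, and limma took its place.

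Genes with at least 0.299 CPM (10 counts at the median depth) in 4 libraries and 15 counts in all were fitted with limma 3.58.1 (voom, robust empirical Bayes) in R 4.3.3, on library sizes scaled by the trimmed mean of M values with trims of 30% and 5%. P-values were adjusted by Benjamini-Hochberg over all genes tested, at a threshold of 0.05. Replicates 5 to 8 were fitted alone in the same way. The script was tested on simulated data. Groups come from the labels, and each library holds 28910881 to 38961862 counts. Chi-square per degree of freedom between 2 libraries of a line ran from 1.97 to 6.14, where counting error alone gives about 1. Counting error was therefore a sizeable part of the spread in some pairs, and it weighs most in genes with few counts. A gene at 0 in a line was given 3 counts, summed over its 4 libraries, as a floor, and genes with few counts have a ratio of summed counts with an exact 95% interval.

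The libraries, the lists and the genes were chosen with earlier results of these data known. Named by rule were the 10 genes with the largest and the 10 with the smallest log2 fold change among a set of protein-coding genes. These had 1 CPM or more in each line, 10 CPM or more over all 8 libraries and no overlap of the libraries. The rule also named, for each line, the 5 most abundant genes that had no count in the other line. It added up to 3 called members of each list in each direction, with the key genes of each pathway. Last came the 5 genes in each direction with the largest opposite differences in replicates 5 to 8. The other named genes were chosen after their values were seen: B2M, CD3E, CD44, CDK4, CDKN2B-AS1, COL6A1, EEF1G, EGFR, ELAVL2, FN1, FOCAD, HLA-B, HLA-C, HLA-DMA, HLA-DOA, HLA-DQA1, HOXA5, HOXC10, IFNB1, IZUMO3, KDR, KLHL9, KRT1, KRT18, KRT5, L1CAM, MAGEA3, MS4A1, MTRR, MYO5A, NGFR, PAX3, PECAM1, PMEL, PRAME, S100A6, S100B, TIMP3, TNC and TUSC1. Some genes of the lists are not reported here. Alternatives were other scalings, filters, thresholds and fits, all 16 libraries, a replicate block and leaving out each library.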

Additional observations from a re-analysis of the deposited data

Results flagged for a closer look

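In each line, the 4 libraries were checked for 1 that stood apart from the other 3. The values checked were library totals, the number of genes with a count, the mitochondrial share, the CPM of genes named for every comparison, and for each list the mean over the tested members of log2 CPM, centred on the 8 libraries. Of 84 such groups of 4 libraries 4 had one, all of them list means, where chance at 5% gives 4.2. The MHC class II list stood at -3.47 in MeWo replicate 2, against -3.81 to -3.76 in the other MeWo libraries. This library also had the most genes with a count (34471), and the 3 ZEB1 counts of MeWo lay in it. The methionine cycle list stood at 0.19999 in A101D replicate 2, against 0.135 to 0.142 in the others. The folate list stood at -0.0988 in MeWo replicate 3, against -0.196 to -0.185. The list of secreted and surface genes stood at 1.03 in A101D replicate 3, against 1.0104 to 1.0134.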

How the results depend on the processing

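Most named genes kept their direction and call under the alternatives, with 3400 gene values on the same side, 61 that lost and 27 that gained a call, and 14 of the other sign. Tested against a change of 2-fold in limma, 5212 genes passed, 1920 higher and 3292 lower, with 194 list members against 457. With no filter on low counts more genes were tested, and 4500 were higher and 7228 lower by more than 2-fold. In that fit 4 named genes lost their call, the abundant PMEL, TIMP3 and EEF1A1 among them. The cause was not tested, so these losses may belong to that fit and not to the genes. Over genes with a mean of at least 10 CPM the medians of chromosomes 21, 12 and 17 were -0.66, -0.27 and 0.48. Leaving out 1 library moved the medians within -0.85 to -0.75 (chromosome 21), -0.78 to -0.73 (7), -0.49 to -0.44 (12), 0.40 to 0.45 (17), 0.41 to 0.46 (16) and 0.46 to 0.54 (18). The difference in the number of genes with a count was -497, and ran from -1442 (without MeWo replicate 2) to -36.6 (without MeWo replicate 3) when 1 library was left out.

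With all 16 libraries in the fit, 14 named genes took the other sign, none past the threshold in limma: TEX14 (-0.18), SLC25A5P5 (-0.25), RELN (-0.37), INSC (-1.06), GOT1 (-0.074), RIBC2 (0.80), FBXO43 (0.32), H2BC14 (0.61), H4C4 (0.20), CDC45 (0.011), ADI1 (0.018), E2F1 (0.87), ANLN (0.58) and MYBL2 (0.40). AHCY, ASNS, DDIT4, CCNE1, RPL22L1 and ENSG00000286887 lost their call there. The cause was not tested.

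With the replicate number as a block 15848 genes passed and 457 list members, and the block changed the call of no named gene. Deviations of same-numbered libraries correlated at 0.002, 0.089, -0.021 and 0.059, not every library correlated best with its own number, and the libraries share only a number. edgeR and DESeq2 were not run. Depth limits the genes at 0 or with few counts in a line, for which only a bound or a wide interval can be given.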
